A study of Rattus norvegicus with 6 samples.

Results

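The muscarinic acetylcholine receptors are encoded by Chrm1 to Chrm5. They were found by symbol among the 25629 genes of the deposited count tables: Chrm1 (ENSRNOG00000018385), Chrm2 (ENSRNOG00000046972), Chrm3 (ENSRNOG00000049410), Chrm4 (ENSRNOG00000017556) and Chrm5 (ENSRNOG00000006397), 5 of 5 members. RNA was measured in single nuclei of the nucleus accumbens of Sprague-Dawley rats aged 90 to 120 days. Tissue of 12 rats (6 male and 6 female) was combined into 6 libraries, 3 per group, each pooling both sexes. All rats, controls included, had taken heroin by self-administration, first on a fixed ratio of 1 (7 days) and later on a fixed ratio of 3, with a progressive ratio test on day 12 and the last sessions on days 13 and 14. They were then injected with saline (libraries 1 to 3) or with naloxone, an opioid receptor antagonist (libraries 4 to 6), and killed 1 h later. Libraries of rats without heroin were not analysed here, so each difference between treatments is one within heroin-experienced rats.

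Acetylcholine in the accumbens comes largely from sparse, tonically active cholinergic interneurons, which act on spiny projection neurons and on other interneurons. M1, M3 and M5 couple to Gq, which activates phospholipase C, whereas M2 and M4 couple to Gi/o, which lowers cyclic AMP and opens inward rectifier potassium channels. In the striatum M1 is known from spiny neurons of both pathways, M4 from dopamine D1 receptor neurons, and M2 as an autoreceptor of cholinergic neurons.

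The deposited tables held 64260 barcodes, with 55739350 to 76272798 UMIs (unique molecular identifiers, each counting 1 captured RNA molecule) per library. Filtering and doublet removal left 58960 nuclei with medians of 4277 to 6506 UMIs per library, where the labels state 44592 nuclei. Naloxone replicate 5 stood apart from the others: its median mitochondrial share was 0.557% against 0.152% to 0.340% in the other libraries, and its counts lay farther from those of the other naloxone libraries (chi-square over its degrees of freedom, 42.0 and 51.2) than did other pairs within a group (11.3 to 16.9). The libraries shared 463 barcode sequences, 388 of them among the nuclei used. Classes were named from clusters made without the receptor genes, by marker genes, and a level is given as CPM, the UMIs of a gene per 1000000 UMIs of its class in a library, as mean ± SD over 6 libraries unless stated. Levels were compared between classes for 1 gene, not between genes, which differ in length.

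The class names were checked against their defining genes. Drd2 stood at 568 ± 29.9 CPM in Drd2-like nuclei, Chst9 at 1634 ± 50.1 CPM in Chst9-like nuclei, and Otof at 324 ± 24.9 CPM in Otof-like nuclei against 165 CPM in Chst9-like nuclei. Drd1 was low, at 31.5 ± 4.55 CPM in Drd1-like, 35.3 ± 5.005 CPM in Otof-like, 21.1 ± 2.75 CPM in Chst9-like and 3.78 ± 0.935 CPM in Drd2-like nuclei, so it set the Drd1-like class apart from the Drd2-like one only, and each Drd1-like cluster was named on 3 raised markers of 6. The choline transporter gene Slc5a7 marked the cholinergic-like nuclei, at 610 ± 56.2 CPM; Chat and Slc18a3 were not analysed here. Of the neuronal clusters 7 stayed unnamed and are called here by a leading gene.

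Chrm3 and Chrm4 split the Drd1-like and Drd2-like spiny neurons in opposite directions, so their promoters are shown. Each run below holds 250 bases before to 50 bases after the RefSeq start site in the GRCr8 assembly, plus strand, 5′ to 3′, with every CG dinucleotide in capitals. The submitters' processing notes name another build, mRatBN7.2, so no count was read by these coordinates.
Chrm3 promoter, chr17:64696677-64696976: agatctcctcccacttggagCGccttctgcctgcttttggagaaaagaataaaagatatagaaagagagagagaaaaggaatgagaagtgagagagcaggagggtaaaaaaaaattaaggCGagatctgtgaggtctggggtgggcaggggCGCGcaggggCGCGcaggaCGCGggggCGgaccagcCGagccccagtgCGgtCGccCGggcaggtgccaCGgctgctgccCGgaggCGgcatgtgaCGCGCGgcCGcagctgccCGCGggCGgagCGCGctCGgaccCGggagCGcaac
Chrm4 promoter, chr3:98348830-98349129: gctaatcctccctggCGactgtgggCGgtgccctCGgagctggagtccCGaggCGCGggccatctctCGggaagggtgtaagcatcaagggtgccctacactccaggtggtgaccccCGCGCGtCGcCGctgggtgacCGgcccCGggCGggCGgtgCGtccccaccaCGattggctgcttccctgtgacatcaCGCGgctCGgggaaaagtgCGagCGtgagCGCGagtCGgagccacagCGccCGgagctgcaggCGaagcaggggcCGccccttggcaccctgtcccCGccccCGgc
The Chrm3 window held 28 CG and the Chrm4 window 32, and 12.7% and 8.37% of 33469 rat promoter windows of that length held at least as many. The median window held 7, the number also found for Chrm1, and the Chrm2 window held 10. Both genes of the opposite pair therefore had CG-dense starts, and the count did not separate the one high in Drd2-like from the one high in Drd1-like nuclei. The table matched 4 of the 5 genes, all but Chrm5.

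Chrm1, the Gq-coupled M1 receptor, was the receptor gene that the spiny classes shared at a like level. In Drd2-like nuclei the libraries held 35.7, 26.2 and 32.4 CPM after saline and 29.1, 33.2 and 38.0 CPM after naloxone. In Drd1-like nuclei they held 35.03, 27.9 and 33.2 CPM and 22.6, 30.7 and 32.1 CPM. These ranges overlapped almost wholly, and saline replicate 2 and naloxone replicate 4 were the lowest libraries in Drd1-like, Drd2-like, Otof-like and Chst9-like nuclei alike. Otof-like nuclei had 28.9 ± 3.74 CPM and Chst9-like nuclei 27.7 ± 6.74 CPM, and the unnamed Adamtsl1-led neurons had 30.6 ± 7.11 CPM. Neighbours in the order of the named classes did not differ beyond their spread (exact two-sided sign-flip test over 6 libraries, p = 0.25, 0.219 and 0.469). The first step beyond the spread was from Chst9-like to endothelial-like nuclei (13.9 ± 5.53 CPM from 19 UMIs), at the smallest p that 6 libraries allow, 0.0313. Chrm1 was at 5.58 ± 1.66 CPM in Pthlh/Pvalb-like, 1.86 ± 1.56 CPM in cholinergic-like and 1.66 ± 1.33 CPM in somatostatin-like nuclei, and at 1.61 to 7.38 CPM in oligodendrocyte precursor-like, astrocyte-like, oligodendrocyte-like and microglia-like nuclei.

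**Figure D1:**
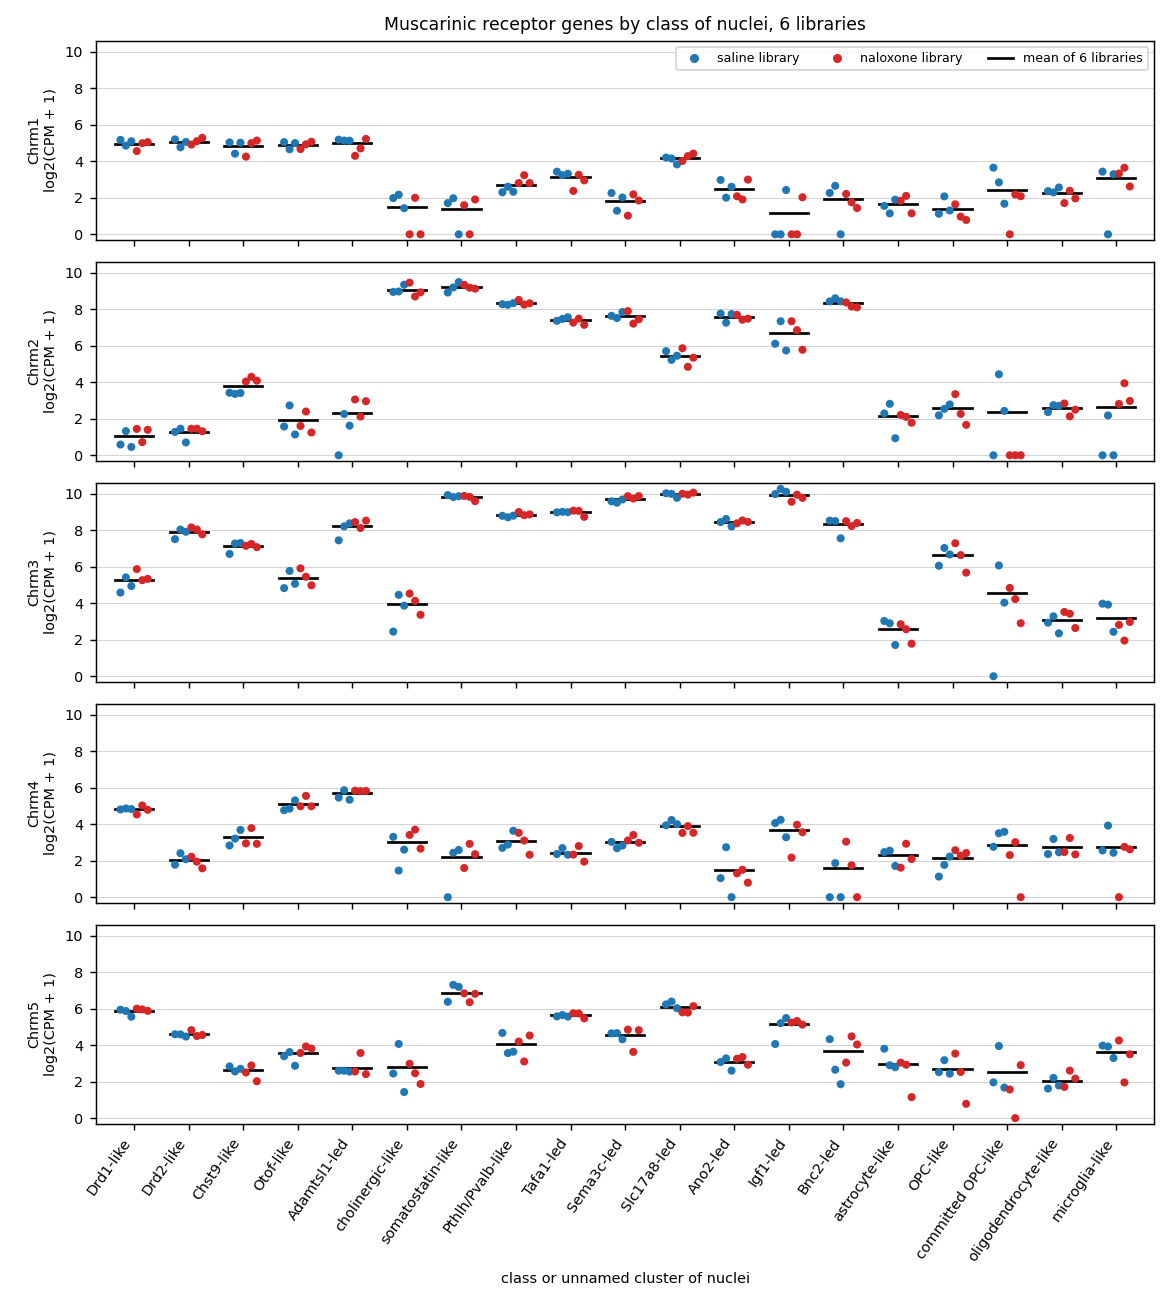
Level of each receptor gene in each class on the log2(CPM + 1) scale, with 1 point per library and the mean over 6 libraries marked. Chrm1 is highest in the 4 spiny classes and the Adamtsl1-led neurons, Chrm2 in the interneuron classes with somatostatin-like at 593 CPM and cholinergic-like at 539 CPM, and Chrm3 peaks among the classes named here at 900 CPM in somatostatin-like nuclei.

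Chrm3, the Gq-coupled M3 receptor, divided the spiny classes. In Drd2-like nuclei it stood at 181, 261 and 239 CPM after saline and at 283, 261 and 217 CPM after naloxone. In Drd1-like nuclei it stood at 22.9, 41.5 and 29.7 CPM and at 57.3, 37.3 and 39.2 CPM. The highest Drd1-like library was thus far below the lowest Drd2-like one. The difference, Drd1-like over Drd2-like, was -2.70 ± 0.07 on the log2 scale (SE; edgeR quasi-likelihood test with library as a block, Benjamini-Hochberg adjusted p = 6.5e-17), and 3 of the 5 receptor genes passed in this comparison, where 23.5% of all genes tested did. Chst9-like nuclei lay between, at 139 ± 19.9 CPM, and Otof-like nuclei, at 40.9 ± 13.1 CPM, lay near the Drd1-like ones. Chst9-like exceeded Drd1-like nuclei by 1.73 ± 0.09 and Otof-like ones by 1.72 ± 0.08 log2 units (adjusted p = 7.0e-14 and 3.0e-16 by edgeR).

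Chrm4, the Gi/o-coupled M4 receptor, ran the other way. Its levels in Drd1-like nuclei were 26.9, 28.0 and 27.4 CPM after saline and 22.1, 31.5 and 26.6 CPM after naloxone, and in Otof-like nuclei 26.1, 27.8 and 38.4 CPM and 30.6, 45.8 and 30.5 CPM. In Drd2-like nuclei it was at 2.43, 4.30 and 3.23 CPM and at 3.64, 2.85 and 1.99 CPM. No Drd2-like library came near a Drd1-like one. The Drd2-like mean was 3.07 ± 0.835 CPM. It lay below the 5.64 ± 2.06 CPM of oligodendrocyte-like and the 5.72 ± 4.62 CPM of microglia-like nuclei. At their own depth 2.70% of Drd2-like, 0.960% of oligodendrocyte-like and 0.767% of microglia-like nuclei held a Chrm4 UMI. These glial nuclei are shallower (median 1616 and 1267 UMIs against 8373), and whether the Drd2-like level is background was not tested. Drd1-like exceeded Drd2-like nuclei by 3.13 ± 0.11 log2 units (adjusted p = 1.5e-14 by edgeR). Chst9-like nuclei had 8.71 ± 2.89 CPM, which is -1.80 ± 0.11 log2 units against Drd1-like nuclei (adjusted p = 2.2e-12 by edgeR). The highest level of any neuronal cluster was in the unnamed Adamtsl1-led neurons, at 51.0 ± 7.69 CPM, above both Drd1-like and Otof-like nuclei in 6 of 6 libraries; this pair of comparisons was added after the levels were seen.

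Chrm5, the Gq-coupled M5 receptor known best from midbrain dopamine neurons, also favoured Drd1-like over Drd2-like nuclei. The Drd1-like libraries held 60.3, 57.3 and 46.0 CPM after saline and 62.8, 61.0 and 57.6 CPM after naloxone, and the Drd2-like libraries had 23.1 ± 2.18 CPM, with a highest value of 27.2 CPM. The groups of 6 did not overlap, and the difference was 1.31 ± 0.05 log2 units (adjusted p = 5.5e-14 by edgeR). Otof-like nuclei, at 10.9 ± 2.78 CPM, and Chst9-like nuclei, at 5.10 ± 1.21 CPM, were at the level of microglia-like nuclei (11.5 ± 5.36 CPM) or below it. Both lay below the Drd1-like level in 6 of 6 libraries, by -2.45 ± 0.09 and -3.68 ± 0.10 log2 units (adjusted p = 7.9e-21 and 1.4e-18 by edgeR). Chrm5 overlaps the gene Aven in the GRCr8 annotation, and whether the counting used strand is not given in the sources used here. Aven had 26.4 CPM in Drd1-like, 30.5 CPM in somatostatin-like and its highest level, 70.2 CPM, in microglia-like nuclei. Chrm5 there, at 11.5 ± 5.36 CPM, was above the 3.16 to 6.73 CPM of astrocyte-like, precursor-like, committed precursor-like and oligodendrocyte-like nuclei. The part of Aven RNA in the Chrm5 counts was not tested. Chrm4 overlaps Mdk in the same annotation, and Mdk stood at 1.53 to 15.9 CPM across the classes.

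**Figure D2:**
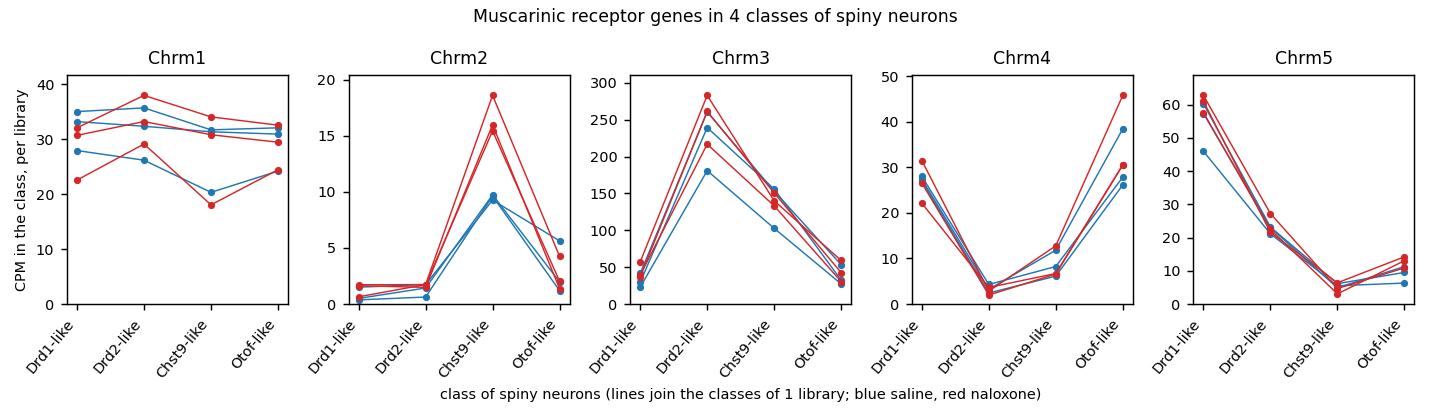
Levels in CPM of the 5 receptor genes in Drd1-like, Drd2-like, Chst9-like and Otof-like nuclei, 1 point per library with saline and naloxone libraries marked apart. Chrm3 is high in Drd2-like nuclei (240 CPM), Chrm4 in Drd1-like and Otof-like nuclei (27.1 and 33.2 CPM), and Chrm5 in Drd1-like nuclei (57.5 CPM), while Chrm1 overlaps in all of them.

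Chrm2, the Gi/o-coupled M2 receptor, was close to nil in Drd1-like and Drd2-like nuclei, at 1.06 ± 0.619 and 1.46 ± 0.431 CPM, below the 3.37 to 5.13 CPM of astrocyte-like, oligodendrocyte-like, oligodendrocyte precursor-like and microglia-like nuclei. Chst9-like nuclei were the exception among spiny classes, at 9.73, 9.27 and 9.63 CPM after saline and 15.4, 18.6 and 16.0 CPM after naloxone. All 6 libraries exceeded the Drd1-like ones, by 3.45 ± 0.22 log2 units (adjusted p = 6.0e-12 by edgeR), and the Otof-like ones, by 2.08 ± 0.24 log2 units (adjusted p = 3.7e-08). In Chst9-like against Drd1-like nuclei all 5 receptor genes passed the test, where 56.6% of all genes did; Chrm1 had the smallest of these differences, at -0.30 ± 0.07 log2 units (adjusted p = 0.0016 by edgeR), was higher in Chst9-like nuclei in 2 of 6 libraries by CPM, and did not pass without the library block (-0.30) or in nuclei of these classes picked by their markers (-0.21). In Chst9-like against Otof-like nuclei 4 of 5 passed, all but Chrm1 (42.3% of all genes). In Otof-like against Drd1-like nuclei 3 of 5 passed (36.1% of all genes): Chrm2, at 1.39 ± 0.33 log2 units (adjusted p = 0.0010), from 45 and 81 UMIs and at levels under those of glia, Chrm5, and Chrm4, at 0.23 ± 0.08 log2 units (adjusted p = 0.031 by edgeR). The Chrm4 call was lost when saline replicate 3 or naloxone replicate 5 was left out (highest adjusted p over the 6 omissions 0.222).

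Single nuclei picked by their spiny marker alone held more Chrm2 than the class of that marker. This was so in picks that lay mostly in their class and in picks that did not. The part of mixing in it was not tested. Of 2023 nuclei with at least 1 Drd1 UMI and none of Drd2, Chst9, Otof or Slc5a7, 47.4% lay in the Drd1-like class and 20.4% in unnamed neuronal clusters. Their Chrm2 level was 36.9 ± 11.1 CPM and their Chrm3 level 201 ± 52.5 CPM. Within the Drd1-like class the same pick of 958 nuclei had 1.99 ± 1.28 CPM of Chrm2 and 30.7 ± 17.5 CPM of Chrm3, near the values of the whole class. Other nuclei were picked by at least 3 UMIs of Drd2, Chst9 or Otof, with none of the others or of Slc5a7. The Drd2 pick also excluded Drd1 UMIs, and every pick allowed at most 5 UMIs of the myelin gene Mbp. Chrm2 behaved likewise there, at 12.9 ± 4.56 CPM in the Drd2 pick (82.9% in its class), 22.8 ± 2.06 CPM in the Chst9 pick (81.1%) and 21.8 ± 8.49 CPM in the Otof pick (35.2%). In the Chst9 pick Chrm2 was thus lower than in the Drd1 pick (-0.76 log2 units), against its order between the classes. Chrm4 kept its split, at 23.4 ± 2.72 CPM in the Drd1 pick and 3.24 ± 0.749 CPM in the Drd2 pick.

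The 2 Drd1-like clusters differed in 4 of the 5 genes, a comparison added after the levels were seen. Clusters are drawn to differ in expression, and the share of all genes that differed was not computed. The count is therefore not read as particular to the receptors. The Ebf1-led cluster (2833 nuclei, with Calb1 and Crym among its leading genes) had 79.1 ± 8.17 CPM of Chrm5 against 46.6 ± 6.88 CPM in the Chst15-led cluster (4941 nuclei). Chrm3 was 4.89 times higher in the Chst15-led cluster, at 52.2 ± 17.2 against 10.7 ± 5.25 CPM, and Chrm4 was 1.47 times higher there, at 30.4 ± 3.50 against 20.7 ± 2.26 CPM. Each difference, and a small one of Chrm2 (0.740 against 1.24 CPM), held in 6 of 6 libraries (exact sign-flip test, p = 0.0313, the smallest possible); Chrm1 was at 32.4 and 29.2 CPM (p = 0.0938). Within the Drd2-like class the main Drd2-led cluster had 254 ± 38.8 CPM of Chrm3 and the smaller Itga11-led cluster 77.9 ± 19.9 CPM, again in 6 of 6 libraries (exact sign-flip p = 0.0313). Chrm3 thus differed between the clusters of each class. The mean of the higher Drd1-like cluster still lay below that of the lower Drd2-like one. Their libraries overlapped, at 34.2 to 83.5 CPM in the Chst15-led and 57.3 to 103 CPM in the Itga11-led cluster. Within each library the Chst15-led value was the lower, and this pair was not tested.

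**Figure D3:**
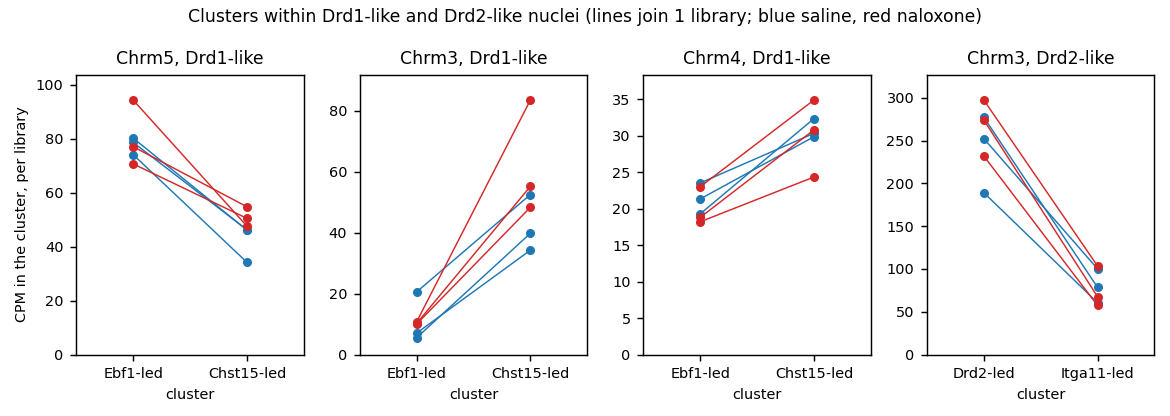
Levels in CPM of Chrm5, Chrm3 and Chrm4 in the clusters of the Drd1-like class and of Chrm3 in those of the Drd2-like class, 1 point per library. Chrm5 is higher in the Ebf1-led than in the Chst15-led cluster (79.1 against 46.6 CPM), and Chrm3 is higher in the Drd2-led than in the Itga11-led cluster (254 against 77.9 CPM).

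Chrm2 was highest in the interneuron classes. In somatostatin-like nuclei, which also held the neuropeptide gene Npy, Chrm2 stood at 482, 583 and 715 CPM after saline and at 645, 578 and 556 CPM after naloxone. In cholinergic-like nuclei it stood at 491, 500 and 647 CPM and at 699, 413 and 484 CPM. The ranges overlapped, and the difference, cholinergic-like over somatostatin-like, was -0.07 ± 0.09 log2 units (adjusted p = 0.61 by edgeR), whereas per nucleus the larger cholinergic-like nuclei held more, 8.02 against 4.49 UMIs. Pthlh/Pvalb-like nuclei were lower, at 319 ± 22.8 CPM, by 0.87 ± 0.07 log2 units against somatostatin-like ones (adjusted p = 1.5e-10 by edgeR). The next steps down this order that exceeded the spread were to Pthlh/Pvalb-like and from there to endothelial-like nuclei (each higher in 6 of 6 libraries, exact sign-flip p = 0.0313). Against Drd1-like nuclei the cholinergic-like ones exceeded by 8.84 ± 0.17 log2 units (adjusted p = 2.8e-19 by edgeR); all 5 receptor genes passed there, where 49% of all genes did, and the other 4 were lower in cholinergic-like nuclei, Chrm1 by -4.21 ± 0.32 log2 units.

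Cholinergic-like and somatostatin-like nuclei shared Chrm2 but not Chrm3. In cholinergic-like nuclei Chrm3 was at 4.44, 21.0 and 13.6 CPM after saline and at 22.0, 16.5 and 9.29 CPM after naloxone. In somatostatin-like nuclei it was at 965, 897 and 926 CPM and at 937, 904 and 769 CPM. Every somatostatin-like library was far above every cholinergic-like one (-5.88 ± 0.17 log2 units, cholinergic-like over somatostatin-like, adjusted p = 9.6e-15 by edgeR). By CPM the cholinergic-like mean, 14.5 ± 6.80, did not differ beyond the spread from the 8.17 ± 5.04 CPM of microglia-like nuclei (exact sign-flip p = 0.188). It was higher in 5 of 6 libraries. Per nucleus, cholinergic-like nuclei held 0.203 Chrm3 UMIs against 0.0113 in the shallower microglia-like nuclei (median 12585 and 1267 UMIs). A Chrm3 UMI was seen in 8.53% against 0.903% of nuclei, and in 2.02% against 0.527% after thinning to an equal depth. The thinning left out the shallowest microglia-like nuclei, 31.7% of that class. Whether the cholinergic-like level is background was not tested. Chrm5 split the same pair, at 115 ± 31.4 CPM in somatostatin-like and 5.98 ± 5.09 CPM in cholinergic-like nuclei (-4.17 ± 0.24 log2 units, adjusted p = 5.0e-11 by edgeR). Chrm1 and Chrm4 held too few counts to be tested in it, so 2 of the 3 tested genes passed, where 32.3% of all genes did.

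Somatostatin-like nuclei had the highest mean of the named classes for Chrm2, Chrm3 and Chrm5 alike. Chrm5 there was at 81.8, 157 and 145 CPM after saline and at 113, 80.5 and 111 CPM after naloxone, all above the highest Drd1-like library. Against Pthlh/Pvalb-like nuclei, where Chrm3 was at 453 ± 31.2 CPM and Chrm5 at 15.6 ± 6.71 CPM, Chrm3 was higher by 0.97 ± 0.07 and Chrm5 by 2.88 ± 0.19 log2 units (adjusted p = 8.2e-12 and 1.5e-12 by edgeR). All 3 tested receptor genes passed, where 26.4% of all genes did. Among the unnamed neurons Chrm3 stood at 998 ± 66.5 CPM in the Slc17a8-led, 987 ± 166 CPM in the Igf1-led and 835 ± 84.5 CPM in the Sema3c-led cluster. Chrm2 was at 326 ± 42.4 CPM in the Bnc2-led, 194 ± 34.3 CPM in the Sema3c-led and 189 ± 25.7 CPM in the Ano2-led cluster. The unnamed neuronal clusters held 50.6% to 70.6% of all Chrm3 UMIs of a library and 52.7% to 64.8% of its Chrm2 UMIs.

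Shares of nuclei with a UMI set the same classes apart. Chrm2 was seen in 92.6% ± 4.19 of cholinergic-like and 83.4% ± 4.98 of somatostatin-like nuclei at their own depth (median 12585 and 6312 UMIs), and in 43.2% and 40.01% after thinning to 1000 UMIs. Nuclei with fewer than 1000 UMIs were left out of the thinned shares, among them 31.7% of microglia-like nuclei. Chrm3 was seen in 88.2% of somatostatin-like, 41.1% of Drd2-like and 8.79% of Drd1-like nuclei, and in 52.4%, 16.5% and 3.19% after thinning, against 0.903% of microglia-like nuclei (0.527% after thinning; median 1267 UMIs). Chrm4 was seen in 22.5% of Drd1-like and 2.70% of Drd2-like nuclei, and thinning left 2.65% and 0.373%, the second of these under the 0.547% of microglia-like nuclei. Chrm5 was seen in 27.2% of Drd1-like and 34.8% of somatostatin-like nuclei. In somatostatin-like nuclei 73.5% ± 5.11 held both Chrm2 and Chrm3, the same as the product of their shares. With shares as high as 83.4% and 88.2% there was little room for a departure from the product. The match therefore does not tell whether these genes go together in single nuclei.

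Glia held little receptor RNA, with 1 exception. Chrm3 in oligodendrocyte precursor-like nuclei, whose class held the growth factor receptor gene Pdgfra at 640 CPM, stood at 65.2, 129 and 101 CPM after saline and at 155, 98.2 and 49.99 CPM after naloxone. All 6 libraries lay above every astrocyte-like, oligodendrocyte-like and microglia-like library, where the means were 4.91, 7.47 and 8.17 CPM. The difference from oligodendrocyte-like nuclei was 3.89 ± 0.14 log2 units (adjusted p = 1.1e-16 by edgeR); the other 4 genes did not pass the filter on low counts, and 68.2% of all genes passed the test. In the 1488 precursor-like nuclei with no UMI of Drd2, Chst9, Otof or the neuronal gene Rbfox3, Chrm3 was at 93.9 ± 36.6 CPM, as large as in all 2149. Committed precursor-like nuclei had 22.2 ± 23.5 CPM, lower in 6 of 6 libraries, and 4.52 ± 7.10 CPM without nuclei holding those neuronal UMIs. Between astrocyte-like and oligodendrocyte-like nuclei 3 of the 4 tested genes passed (70.5% of all genes), all at 3.16 to 7.47 CPM: Chrm3 and Chrm4 were lower in astrocyte-like nuclei (-0.66 ± 0.21 and -0.59 ± 0.23 log2 units) and Chrm5 was higher (0.98 ± 0.34; adjusted p = 0.011, 0.032 and 0.016 by edgeR), and per nucleus the Chrm4 ratio turned to 0.09 log2 units higher in astrocyte-like nuclei. Leaving out 1 library ended the Chrm4 call in 4 of 6 omissions (saline replicates 2 and 3, naloxone replicates 4 and 5; adjusted p from 0.0502 to 0.116) and the Chrm5 call in 2 (saline replicate 1, naloxone replicate 4; 0.0848 and 0.0651). Chrm3 (0.0654) and Chrm4 (0.114) did not pass without the library block.

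**Figure D4:**
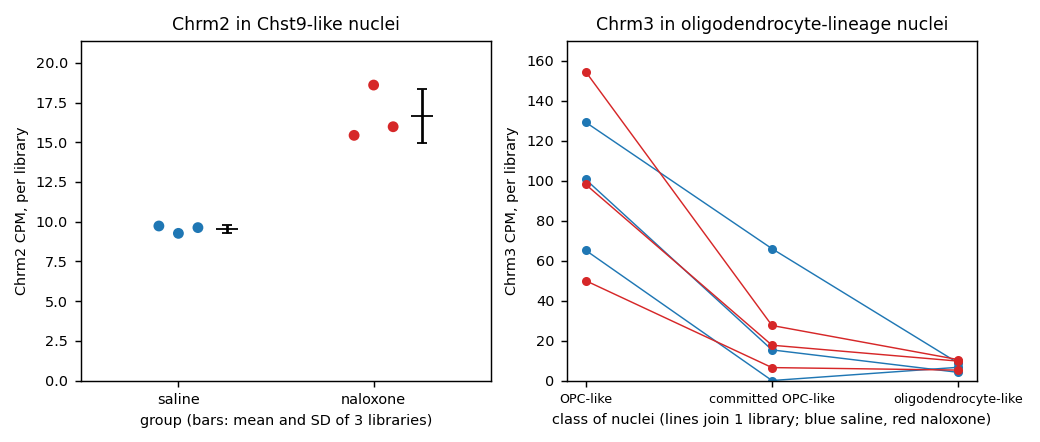
Left, Chrm2 in Chst9-like nuclei in CPM, 1 point per library, with bars for the mean and SD of the 3 saline and the 3 naloxone libraries. Right, Chrm3 in CPM in oligodendrocyte precursor-like (OPC-like), committed precursor-like and oligodendrocyte-like nuclei, with lines joining the values of 1 library; every precursor-like library lies above the committed precursor-like value of the same library.

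For each receptor, the genes with the most similar pattern of log2(CPM + 1) over the 15 named classes were looked up among 9605 genes; the points share libraries and depth, and the correlations are a description. Chrm1 went with Baiap2 (Pearson r = 0.95), Rbm24 and Cracdl. Chrm2 went with Tacr1, the substance P receptor gene (r = 0.93), Ttbk2 and Ass1, and Chrm3 with the calcium sensor gene Vsnl1 (r = 0.88), Tcerg1l and Dgkg. Chrm4 went with the transcription factor gene Foxp2 (r = 0.78), the dopamine receptor gene Drd3 and the phosphodiesterase gene Pde11a, and Chrm5 with Syt10 (r = 0.85), Calb1 and the serotonin receptor gene Htr2c. Tacr1, Foxp2 and Drd3 also served as class markers. Chrm2 and Chrm3 had r = 0.38 with each other, and Chrm3 and Chrm4 r = 0.02.

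The comparison of naloxone with saline asked whether the receptor genes changed within 1 h of the antagonist in heroin-experienced rats. None of 42 tests of a receptor gene in 12 classes, all nuclei included, passed the edgeR quasi-likelihood test at an adjusted p of 0.05; 5 had an unadjusted p under 0.05, and DESeq2 called 1. Among all genes an unadjusted p under 0.05 was found for 2464 of 17348 in all nuclei and for 348 of 7286 in cholinergic-like nuclei, the fits of the 12 with the highest and the lowest share. The DESeq2 call was Chrm3 in all nuclei, where DESeq2 called 2.65% of genes (381) and edgeR called 9 genes. In the single classes DESeq2 called 3.65% of genes in microglia-like, 2.45% in Drd2-like, 2.33% in oligodendrocyte-like, 1.19% in astrocyte-like, 1.12% in Drd1-like, 0.459% in oligodendrocyte precursor-like, 0.157% in Chst9-like, 0.0216% in Otof-like, 0.0168% in Pthlh/Pvalb-like and 0.0062% in endothelial-like nuclei, and none in the others. In microglia-like and committed precursor-like nuclei no receptor gene passed the filter on low counts. Few genes passed the test in these fits at all. The share called by edgeR was 0.0519% in all nuclei, 0.917% in astrocyte-like and also in oligodendrocyte-like, 0.621% in Drd2-like, 0.334% in oligodendrocyte precursor-like, 0.199% in Drd1-like and 0.179% in microglia-like nuclei. It was 0.0699% in Chst9-like, 0.0557% in Otof-like, 0.0314% in Pthlh/Pvalb-like, 0.0192% in endothelial-like and 0.0139% in somatostatin-like nuclei. No gene passed in cholinergic-like and committed precursor-like nuclei, where 348 and 362 had an unadjusted p under 0.05 and DESeq2 called 0 and 0. Saline and naloxone libraries did not overlap in 4 of the 42 tests, those of Chrm2 in Chst9-like nuclei and of Chrm3 in all, endothelial-like and Pthlh/Pvalb-like nuclei. The share of all genes without overlap was not computed, so this count is not read as a result about the receptors. The p-values of the fits measure the spread between pooled libraries. Different clusters made up the oligodendrocyte-like class in the 2 groups. Its Opalin-led cluster counted 1045, 1789 and 1651 nuclei in the saline libraries, against 975, 58 and 516 in the naloxone ones. Its Gpd1-led cluster counted 24, 69 and 71, against 1005, 1523 and 625. Chrm3 was at 13.0 ± 15.6 CPM in the Opalin-led and 5.54 ± 4.66 CPM in the Gpd1-led cluster. The Opalin-led mean was raised by naloxone replicate 5, at 44.0 CPM from 58 nuclei. The other libraries held 1.98 to 11.6 CPM in that cluster, so the means do not set the clusters apart.

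In the classes with the highest levels no receptor gene passed. The log2 change, naloxone over saline, was 0.01 ± 0.13 for Chrm2 and -0.09 ± 0.11 for Chrm3 in somatostatin-like nuclei, and -0.03 ± 0.20 for Chrm2 in cholinergic-like nuclei. It was 0.17 ± 0.12 for Chrm3 in Drd2-like, -0.04 ± 0.11 for Chrm4 in Drd1-like, 0.23 ± 0.18 for Chrm4 in Otof-like and 0.14 ± 0.10 for Chrm5 in Drd1-like nuclei. Their adjusted p by edgeR lay between 0.557 and 0.995. Chrm5 in somatostatin-like nuclei was at 128 ± 40.3 CPM after saline and 102 ± 18.3 CPM after naloxone (n = 3 each, log2 -0.35 ± 0.20, unadjusted p = 0.0946, adjusted p = 0.79 by edgeR), with overlapping groups. Chrm3 in Pthlh/Pvalb-like nuclei was at 433 ± 14.8 and 474 ± 30.4 CPM (log2 0.14 ± 0.09, adjusted p = 0.73 by edgeR), and Chrm5 in Otof-like nuclei at 9.03 ± 2.52 and 12.7 ± 1.69 CPM (log2 0.54 ± 0.25, adjusted p = 0.54 by edgeR, unadjusted p = 0.0445).

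**Figure D5:**
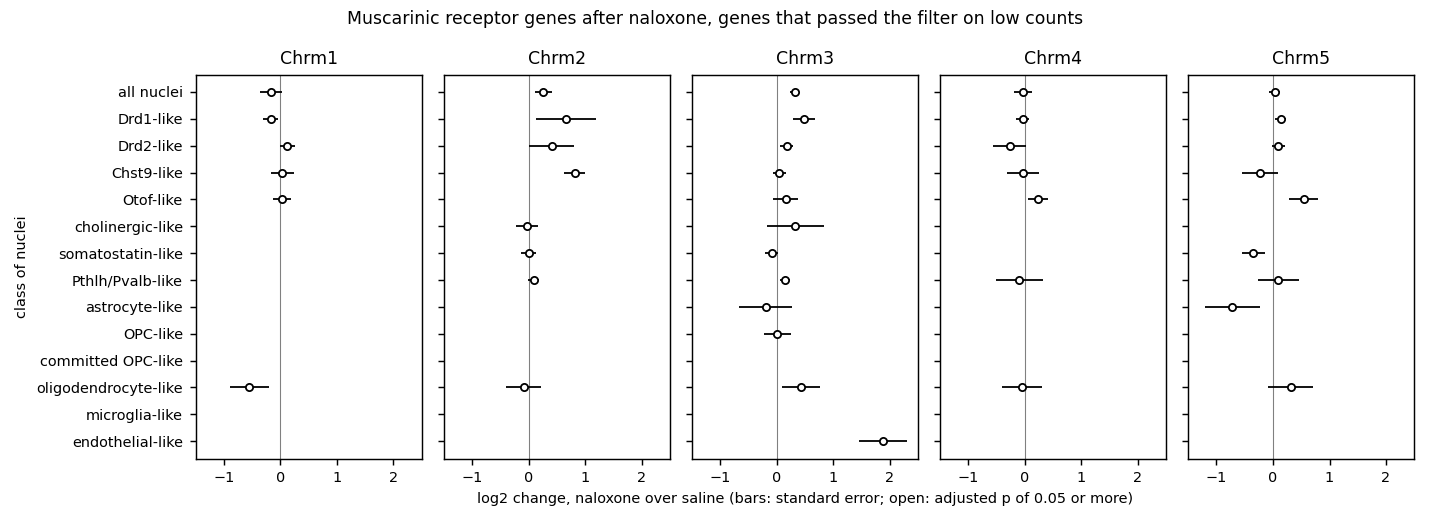
Log2 change, naloxone over saline, of each receptor gene in each class where it could be tested by edgeR, with bars of 1 SE. The values run from -0.72 to 1.88 and none passes an adjusted p of 0.05; the highest is Chrm3 in endothelial-like nuclei.

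The lowest adjusted p belonged to Chrm2 in Chst9-like nuclei, 0.114 by edgeR, with a log2 change of 0.82 ± 0.19. The saline libraries (9.73, 9.27 and 9.63 CPM) all lay below the naloxone ones (15.4, 18.6 and 16.0 CPM). Of the 286 Chrm2 UMIs in this class, 79 came from 12 nuclei with at least 5 each, 3 of them in saline and 9 in naloxone libraries. With each library left out in turn the log2 change ran from 0.76 to 0.86 (adjusted p from 0.125 to 0.378 by edgeR). Nuclei with a Chrm2 UMI also had higher mean doublet scores, 0.0224 to 0.0333 against 0.0127 to 0.0211 in those without; the part of this in the result was not tested. A pick within the class took 1294 nuclei with at least 3 Chst9 UMIs, none of Otof, Drd2 or Slc5a7 and at most 5 of Mbp. In these nuclei the log2 change was 0.13 (adjusted p = 0.96 by edgeR).

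Chrm3 summed over all nuclei was at 207, 224 and 224 CPM after saline and at 304, 244 and 271 CPM after naloxone. All naloxone libraries were above all saline ones, with a log2 change of 0.32 ± 0.08 and an adjusted p of 0.185 by edgeR. DESeq2 gave an adjusted p of 0.0484, and edgeR gave 0.0267 without naloxone replicate 5. The unnamed neuronal clusters, which hold the most Chrm3, made up 14.4% to 16.6% of the nuclei of the saline libraries and 17.0% to 21.9% of those of the naloxone libraries; the part of this in the result was not tested. In Drd1-like nuclei Chrm3 had a log2 change of 0.48 ± 0.20 (unadjusted p = 0.030, adjusted p = 0.33 by edgeR), and naloxone replicate 4, at 57.3 CPM, was the highest library. In the 958 marker-picked nuclei of that class it was 1.27 (adjusted p = 0.082 by edgeR), with saline at 14.1, 29.4 and 10.4 CPM and naloxone at 57.7, 31.6 and 40.9 CPM.

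The naloxone change of Chrm3 in Drd1-like minus that in Drd2-like nuclei was 0.30 ± 0.10 log2 units (adjusted p = 0.21 by edgeR; 0 of 5 receptor genes passed, against 1.31% of all genes, and Chrm1 and Chrm3 had an unadjusted p under 0.05). Without naloxone replicate 5 it was 0.46 with an adjusted p of 0.0079. Against Chst9-like nuclei it was 0.42 ± 0.14 (adjusted p = 0.39 by edgeR; 0 of 5 passed, against 0.0901% of all genes, and Chrm3 had an unadjusted p under 0.05).

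Chrm3 in endothelial-like nuclei had the largest of the 42 estimates, 1.88 ± 0.43 on the log2 scale (adjusted p = 0.39 by edgeR). Its libraries held 57.7, 101 and 72.5 CPM after saline and 221, 121 and 519 CPM after naloxone, from 273 UMIs in 432 nuclei. The naloxone libraries were all higher and also the most scattered. Neuronal genes in this class lay on both sides. Of 61 neuronal marker genes 28 had a higher and 27 a lower mean after naloxone and 6 were at 0 in every library. Their summed level was 5604 to 6928 CPM after saline and 4926 to 5941 CPM after naloxone. The sum follows mainly its highest genes, with means after saline and after naloxone as given. Adarb2 (1510 and 688 CPM) and Foxp2 (818 and 702 CPM) were lower after naloxone. Ebf1 (1080 and 1311 CPM) and Ptprm (751 and 905 CPM) were higher. The sum is thus no measure of neuronal RNA as a whole. Drd2 (120 ± 86.2 CPM after saline, 48.2 ± 42.2 CPM after naloxone) and Rbfox3 (390 ± 94.1 and 312 ± 111 CPM) had lower means after naloxone. All naloxone libraries were above all saline ones for 3 of the 61: Nos1, Drd3 and Adamtsl1, which stood at 11.5, 10.1 and 3.30 CPM after saline and at 101, 88.2 and 169 CPM after naloxone. The reverse held for Adarb2, Synpr and Eya1, as many genes as in the first direction. The share of all genes set apart in this way was not computed. Of the genes with a pattern most like that of Chrm3, Tcerg1l was at 17.3, 20.1 and 16.5 CPM after saline and at 58.2, 66.1 and 98.2 CPM after naloxone, and Dgkg at 40.4, 43.7 and 26.4 CPM and at 116, 82.6 and 193 CPM. Both were thus higher in every naloxone library, as Vsnl1 was (46.1, 111 and 115 CPM, then 120, 198 and 138 CPM). Which of these genes to print was chosen after their values were seen. In the 308 nuclei with no UMI of Drd2, Chst9, Otof or Rbfox3, Chrm3 was at 22.4, 0 and 18.0 CPM after saline and 125, 29.8 and 366 CPM after naloxone. The part of RNA from neurons in the change was not tested.

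The genes around the receptors did not pass the naloxone test either. Lists of acetylcholine handling, nicotinic subunits, Gq-side signalling, Gi/o-side signalling and receptor desensitisation gave 433 tests over the classes, and edgeR called 0 higher and 0 lower; 40 had an unadjusted p under 0.05 and DESeq2 called 2 (of all genes, 2.65% in all nuclei and 2.45% in Drd2-like nuclei), the potassium channel gene Kcnj6 in all nuclei (log2 0.35, adjusted p = 0.040 by DESeq2 and 0.18 by edgeR) and the protein kinase C gene Prkca in Drd2-like nuclei (log2 0.38, adjusted p = 0.017 by DESeq2 and 0.10 by edgeR), named here after their values were seen. List medians ran from -0.37 log2 units (2 nicotinic genes tested in Otof-like nuclei) to 0.47 (1 nicotinic gene tested in cholinergic-like nuclei). The medians of all genes, over 5211 to 17348 tested genes, ran from -0.0039 to 0.0095. Over the 14 fits the median was below 0 in 14 for the Gi/o-side list, 11 for the Gq-side list, 6 for desensitisation, 5 for the nicotinic subunits (no gene tested in 3) and 4 for acetylcholine handling; the fits share libraries. Slc5a7, the choline transporter of cholinergic terminals, had a log2 change of 0.04 ± 0.15 in cholinergic-like nuclei (adjusted p = 0.99 by edgeR). Ache, the esterase that ends the acetylcholine signal, was at 72.3 ± 15.6 CPM there and had a log2 change of -0.36 ± 0.20 (adjusted p = 0.96 by edgeR).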

How the data were processed

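The deposited values are counts of UMIs per gene and nucleus, made by the authors with Cell Ranger 9.0.1 per the file headers, from libraries of the Chromium GEM-X 3' kit. The submitters' processing notes name the build mRatBN7.2, Seurat 5.2.1 and R 4.4.0. The annotation release and the counting of introns and strand are not given in the sources used here. The receptor genes and gene lists were chosen with earlier results of these data known.

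Nuclei were kept (61609) with 500 genes or more and a mitochondrial share of UMIs up to 5%, and 2649 called doublets were removed. Clustering (Scanpy 1.11.5, 3000 variable genes, 40 components, 15 neighbours, Leiden resolution 1) left out the receptor, pathway, mitochondrial, Xist and Y-linked genes. Of 38 clusters 20 were named, on at least 3 raised markers, 6 were mixed and 12 stayed unnamed. Counts were summed per library in classes holding 20 nuclei or more of every library. They were tested with edgeR 4.0.16 (filterByExpr, TMM factors, quasi-likelihood test, Benjamini-Hochberg over all genes, threshold 0.05). Class pairs had library as a block. In simulated counts 200 genes were changed by 1 log2 unit. The naloxone fits recovered 14% (committed precursor-like) to 89.5% (all nuclei) of these genes. Recovery was 55.5% in cholinergic-like, 60% in somatostatin-like and 34% in endothelial-like nuclei, so changes of that size could be missed there. Neighbouring levels were compared by exact sign-flip tests in Python with scipy 1.17.1: 60 pairs, of which 10 reached the smallest p. DESeq2 1.42.0 in R 4.3.3, RLE factors, no filter, Leiden resolution 0.5, doublets kept, at least 1000 genes per nucleus, marker picks and each library left out were alternatives. The named genes are the 5 receptors, called pathway genes, Slc5a7 and Ache, and the 3 genes most correlated with each receptor. The labels name no batch. Mural-like and ependymal-like nuclei were too few to test. Counting error and the pooling of rats into 3 libraries per group limit the precision.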

Additional observations from a re-analysis of the deposited data

How the results depend on the processing

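No paired analysis was made because the labels name no pairing of saline with naloxone libraries. The planned pick of nuclei with at least 3 Drd1 UMIs held 41 nuclei and could not be fitted, so a pick at 1 UMI was added after seeing the data, as was the pick within each class. At Leiden resolution 0.5 the Chst9-like and Otof-like classes merged and gave no value.

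Of 525 alternative values of the 42 naloxone changes of receptor genes, 60 changed sign, in 25 of the 42. Without the filter on low counts Chrm2 in Chst9-like (adjusted p = 0.022), Chrm3 in Drd1-like (0.029) and Chrm3 in endothelial-like nuclei (7.5e-07) passed the edgeR test.

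Class differences turned under the marker picks: Chrm2 to 1.42 in Drd1-like against Drd2-like, and Chrm2 and Chrm3 to -0.76 and -0.0499 in Chst9-like against Drd1-like. Chrm1, Chrm2 and Chrm3 turned to 0.28, -0.69 and -1.21 in Otof-like against Drd1-like, and Chrm2 to -0.0944 in Chst9-like against Otof-like. These picks held 35.2% to 82.9% of their nuclei in the class of the same name. With them Chrm1 passed in Drd1-like against Drd2-like (-0.50) and in Chst9-like against Otof-like (-0.29). Chrm1 in Chst9-like against Drd1-like no longer passed with them (-0.0003), with picks within the class (-0.21) or without the library block (-0.30). Chrm3 in Otof-like against Drd1-like passed with doublets kept (0.36) and with picks within the class (0.51). Chrm4 in that pair did not pass with doublets kept (0.0269), picks within the class (0.27) or no library block (0.24), and ran from 0.15 to 0.29 with libraries left out. In astrocyte-like against oligodendrocyte-like nuclei Chrm3 (-0.65) and Chrm4 (-0.53) did not pass without the block, nor Chrm4 at Leiden resolution 0.5 (-0.54), and Chrm4 turned to 0.0928 in UMIs per nucleus. With libraries left out Chrm4 ran from -0.68 to -0.51 and did not pass in 4 of 6 omissions (highest adjusted p = 0.116 by edgeR), and Chrm5 ran from 0.70 to 1.27 and did not pass in 2 (0.0848). The Chrm3 difference of naloxone changes between Drd1-like and Drd2-like nuclei ran from 0.18 to 0.46. The cause was not tested for any of these.

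Counts of genes called after naloxone moved more. DESeq2 called 381 genes in all nuclei against 9 by edgeR, 20 against 8 in Chst9-like, 111 against 27 in Drd1-like, 169 against 78 in Drd2-like, 29 against 11 in microglia-like, 173 against 104 in oligodendrocyte-like and 0 against 1 in somatostatin-like nuclei. RLE factors gave 14 in all nuclei. Without the filter the counts were 41 in all nuclei, 324 in astrocyte-like, 27 in cholinergic-like, 153 in Chst9-like, 142 in committed precursor-like, 306 in Drd1-like, 501 in Drd2-like, 31 in endothelial-like, 45 in microglia-like, 79 in precursor-like, 390 in oligodendrocyte-like, 77 in Otof-like, 39 in Pthlh/Pvalb-like and 28 in somatostatin-like nuclei. At least 1000 genes per nucleus gave 0 in all nuclei and 2 in microglia-like nuclei. Doublets kept gave 14 in all nuclei, 4 in Chst9-like, 18 in microglia-like, 13 in Otof-like and 8 in Pthlh/Pvalb-like nuclei. Leiden resolution 0.5 gave 21 in precursor-like nuclei. Marker picks gave 4 in Chst9-like, 4 in Drd1-like, 28 in Drd2-like and 17 in Otof-like nuclei, and picks within the class 3, 5 and 1 in Chst9-like, Drd1-like and Otof-like nuclei. With each library left out the counts ran from 0 to 238 in all nuclei, 25 to 125 in astrocyte-like, 2 to 18 in Chst9-like, 0 to 61 in Drd1-like, 16 to 125 in Drd2-like, 0 to 3 in endothelial-like, 2 to 39 in microglia-like, 5 to 41 in precursor-like, 37 to 121 in oligodendrocyte-like, 1 to 11 in Otof-like, 0 to 9 in Pthlh/Pvalb-like and 0 to 18 in somatostatin-like nuclei.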
